A study of Mus musculus with 19 samples.

Results

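The ribosomal protein genes of the mouse liver and their pseudogenes were followed across 19 bulk RNA-seq libraries. Members were the genes whose symbol has the form of a cytosolic ribosomal protein (Rpl or Rps with a number, with or without a -ps suffix) or is Rpsa, Rplp0, Rplp1 or Rplp2, and that reached at least 10 counts in at least 3 libraries. They were thus selected on their counts, and the comparison by library number below was chosen by the counts of the pseudogenes. Of 55836 genes, 386 had such a symbol and 122 of these reached the counts, of which 37 carried the -ps suffix and 85 did not. Of the 264 symbols below the limit, 146 had 0 counts in every library. The last genes inside the limit were Rpl19-ps1, Rps13-ps1 and Rps6kl1, with 10 counts in the lowest of their 3 best libraries, and the first outside were Rpl17-ps5, Rps18-ps5 and Rps18-ps6, with 9. Rps6kl1 met the symbol rule but encodes a kinase-like protein and not a ribosomal protein, so the other 84 are called coding members below. Among these 84, Rpl7l1 is a ribosome biogenesis factor, and Rpl6l is annotated as a processed pseudogene although its symbol lacks the suffix.

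A ribosome is built from ribosomal RNA and a large set of ribosomal proteins, divided between a small subunit (Rps genes) and a large subunit (Rpl genes). The mRNAs of these proteins begin with a terminal oligopyrimidine tract, and their translation is controlled as a group through mTORC1, a kinase complex that responds to nutrients. Because they are short and abundant, these mRNAs have often been copied back into the genome by reverse transcription, which leaves processed pseudogenes: copies without introns, many nearly identical to the coding sequence of the parent gene.

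All mice were wild-type C57BL/6 males. From 8 weeks of age they were fed for 8 weeks a chow diet (CD, 10 kcal% fat) or an MD diet rich in fat, fructose and cholesterol (40 kcal% fat, 20 kcal% fructose, 2% cholesterol), and received by daily gavage polyethylene particles (PE, 2 mg per day) or the vehicle (Veh, 0.1% Tween 20 in water). Each library came from a different mouse. There were 4 libraries of chow-fed mice given vehicle (CD + Veh) and 5 of chow-fed mice given particles (CD + PE), and on the MD diet 5 with vehicle (MD + Veh) and 5 with particles (MD + PE). All were labelled as 1 batch. The libraries held 10398820 to 15456729 counts, so 1 CPM (counts scaled to a common library size) stood for about 10 to 15 counts before TMM scaling. Values with TMM scaling depart somewhat from this. In whole liver, fewer cells of a type and less RNA per cell cannot be told apart.

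The library numbers, which the labels give for each sample, were not spread evenly over the groups. All 4 CD + Veh libraries and MD + Veh replicates 1 to 3 were numbered S39 to S45. MD + Veh replicates 4 and 5, all 5 CD + PE libraries and all 5 MD + PE libraries were numbered S46 to S57. The mean library total was 14940000 counts in S39 to S45 and 11974600 counts in S46 to S57. The pseudogenes Rps6-ps4 and Rps12-ps3 were present throughout the first range and at 0 in the second, as described below. Values by group are therefore given together with values within a range. Range and treatment cannot be told apart on CD, where each group lay in one range, whereas MD + Veh lay in both. MD + PE and CD + PE lay in a single range. What sets the ranges apart is not stated in the labels.

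MD + Veh replicate 1 also stood apart in skeletal muscle genes. The summed level of 8 muscle markers, led by Acta1 (skeletal actin), was 3078 CPM in that library, 194 and 139 CPM in MD + Veh replicates 2 and 3, 422 CPM in CD + PE replicate 1 and at most 37.7 CPM in the other 15 libraries. The diet comparison with vehicle is given with and without this library. All 6 hepatocyte markers were present in every group, with Alb (albumin) the most abundant.

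The coding members covered a wide range of levels. Scaled to transcript length, Rps2 and Rplp1 had the highest mean levels, at 426 and 402 CPM per kilobase, and Rpl3l and Rpl6l the lowest, at 0.700 and 3.03 CPM per kilobase. Rps6kl1 was at 0.143 CPM per kilobase. A single transcript length was used per gene (1096 bases for Rps2, 547 for Rplp1 and 6111 for Rpl37), and the order holds for those lengths only. Without scaling to length, Rps2 and Rpl4 had the highest mean levels, at 467 and 436 CPM. Rplp0, a protein of the acidic stalk that is often used as a reference transcript, was at 396 ± 16.4 CPM in CD + Veh (SD, n = 4), 393 ± 20.5 in CD + PE (SD, n = 5), 350 ± 16.4 in MD + Veh (SD, n = 5) and 328 ± 25.1 in MD + PE (SD, n = 5).

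The first question was whether the MD diet changed the ribosomal protein genes. They were lower on MD as a group. The 85 genes without the suffix together took 1.28%, 1.16%, 1.20% and 1.304% of all counts in the CD + Veh libraries, and 1.02%, 0.946%, 1.00%, 0.876% and 0.938% in the MD + Veh libraries, so that every MD + Veh library lay below every CD + Veh library. The share was 1.07%, 1.09%, 1.095%, 1.13% and 1.20% in CD + PE and 0.943%, 0.930%, 0.879%, 1.102% and 0.946% in MD + PE. MD + PE replicate 4 reached the CD + PE values and the other 4 MD + PE libraries lay below them.

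**Figure D1:**
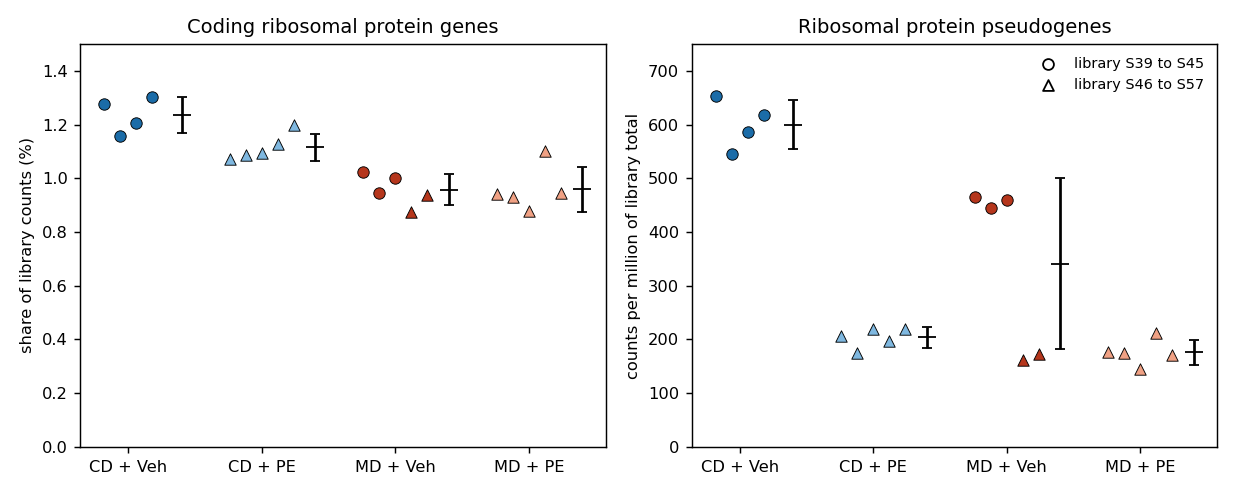
Summed level of the 85 genes without the -ps suffix as a percentage of library counts (left) and of the 37 pseudogenes in CPM of the library total (right), by group. Each point is a library, circles are S39 to S45, triangles are S46 to S57, and the bar at the right of each group is the mean ± SD. On the left every MD + Veh library lies below every CD + Veh library. On the right the 7 circles lie between 444 and 652 and the 12 triangles between 146 and 220.

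In MD + Veh against CD + Veh, 35 of 84 coding members fell and 0 rose (edgeR quasi-likelihood test, Benjamini-Hochberg adjusted p under 0.05 and a log2 fold change of at least 0.38 in size). Of all 13597 genes tested, 5.63% were lower and 4.74% higher by the same rule. The median log2 fold change was -0.36 over the coding members and -0.00 over all genes, 80 of the 84 coding members had a negative value, and 61 passed the adjusted p with no limit on the fold. By symbol, the 35 genes were 16 Rpl and 19 Rps genes, of 51 and 33 tested. The 51 include Rpl7l1 and Rpl6l, which are not genes of subunit proteins as described above.

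Rpl22l1, a paralog of the large-subunit gene Rpl22, had the largest decrease among the genes called. It was at 18.4, 12.3, 14.8 and 17.7 CPM in CD + Veh and at 9.82, 5.45, 7.16, 6.42 and 8.57 CPM in MD + Veh. The groups did not overlap, and the log2 fold change was -1.08 ± 0.19 (SE, edgeR adjusted p = 0.000812). Rpl3, a large-subunit protein that reaches toward the peptidyl transferase centre, was at 278, 256, 267 and 299 CPM in CD + Veh and at 170, 152, 171, 156 and 169 CPM in MD + Veh. All 5 MD + Veh libraries were lower than the lowest CD + Veh library, and the log2 fold change was -0.75 ± 0.07 (SE, edgeR adjusted p = 9.54e-07). Rps27a, which encodes ubiquitin fused to a small-subunit protein, was at 97.5, 88.8, 89.7 and 100.2 CPM in CD + Veh and at 58.1, 57.4, 63.1, 59.1 and 63.9 CPM in MD + Veh, again without overlap. Its log2 fold change was -0.64 ± 0.09 (SE, edgeR adjusted p = 6.77e-05). The other 32 genes that fell had log2 fold changes between -0.59 (Rps18) and -0.38 (Rpl35a).

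The decrease was also present among libraries of one range. With S39 to S45 alone, 4 CD + Veh libraries against MD + Veh replicates 1 to 3, the median over the 84 coding members was -0.35, 83 were negative, 31 fell and Rpl3l rose. Of all 13461 genes tested in this fit, 6.24% were lower and 7.44% higher, and their median was 0.00. Of the 35 genes called with all libraries, 24 were called here. Rpl3, at -0.73 ± 0.08, and Rpl22l1, at -1.07 ± 0.21 (log2 fold change ± SE, edgeR adjusted p = 0.00138 and 0.0120), kept their values. Without MD + Veh replicate 1, 33 of 83 coding members fell and 0 rose in the comparison over all other libraries, with a median of -0.35. Of all genes, 4.65% were lower and 4.42% higher in that fit. Among S39 to S45 without that library, 26 of 84 fell and 0 rose, with a median of -0.34, where 4.49% of all genes were lower and 5.59% higher. In the comparison over all other libraries the log2 fold changes of Rpl22l1, Rpl3 and Rps27a were then -1.18 ± 0.19, -0.75 ± 0.08 and -0.61 ± 0.09 (SE, edgeR adjusted p = 0.000544, 4.68e-06 and 0.000360).

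The same diet comparison among mice that received PE used other mice and libraries of one range only. In MD + PE against CD + PE, 15 of 84 coding members fell and 0 rose, where 2.92% of all genes were lower and 1.69% higher, and 52 passed the adjusted p with no limit on the fold. The median was -0.30, against -0.02 over all genes, and all 84 log2 fold changes were negative. By symbol, the 15 genes were 10 Rpl and 5 Rps genes. Of the 15 genes, 7 were among the 35 of the vehicle comparison, which is 46.7% of the former and 20% of the latter: Rpl22l1, Rpl28, Rpl3, Rps16, Rps18, Rps27 and Rpsa. Only 2 of the 15, Rpl22l1 and Rpl24, were called when libraries were scaled by their totals in place of TMM, a setting that moved the median of all genes to 0.06 and that of the coding members to -0.22. Over all genes the calls were 230 higher and 397 lower with TMM, 252 and 349 with the scaling of DESeq2, and 317 and 226 with library totals.

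Rpl22l1 was again the most decreased of the genes called, at 11.6, 10.3, 10.9, 11.7 and 10.8 CPM in CD + PE and at 7.15, 5.56, 6.43, 8.79 and 3.68 CPM in MD + PE. The groups did not overlap, and its log2 fold change was -0.80 ± 0.19 (SE, edgeR adjusted p = 0.0138). Rpl24, a large-subunit protein that contacts the small subunit, was at 75.5, 68.6, 67.4, 80.4 and 77.4 CPM in CD + PE and at 54.4, 51.7, 50.7, 48.8 and 55.6 CPM in MD + PE. All MD + PE libraries were lower than all CD + PE libraries (log2 fold change -0.50 ± 0.09 SE, edgeR adjusted p = 0.00241). Rps16, a small-subunit protein whose tail reaches the decoding region, was at 179, 154, 174, 203 and 183 CPM in CD + PE and at 136, 119, 124, 137 and 133 CPM in MD + PE. It did not overlap either, with a log2 fold change of -0.46 ± 0.07 (SE, edgeR adjusted p = 0.000480).

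**Figure D2:**
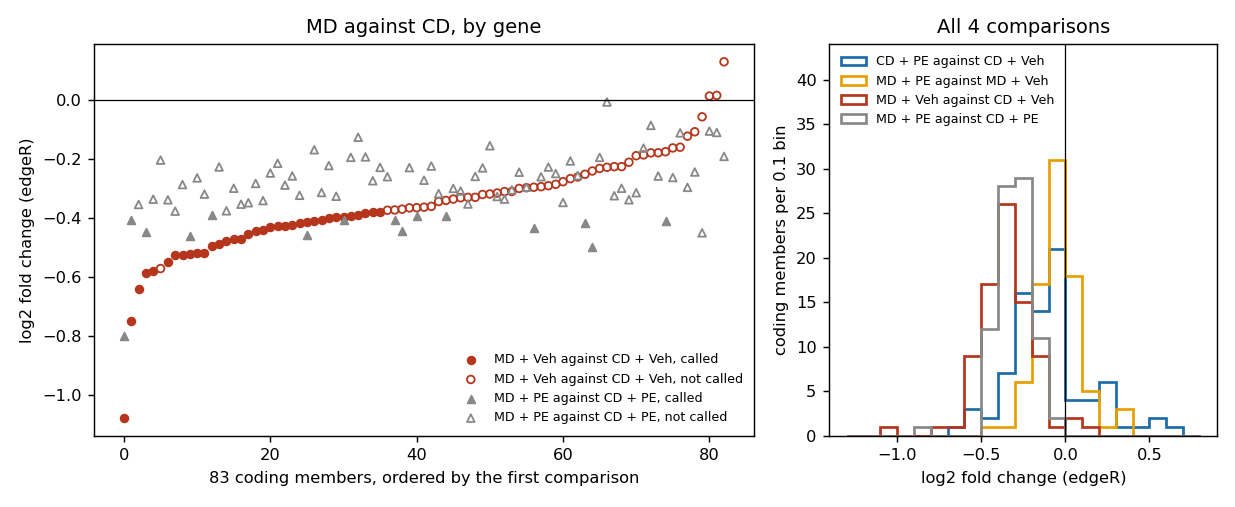
Log2 fold changes of 83 coding members from edgeR, leaving out Rpl3l, which had at most 20 counts outside MD + Veh replicate 1. Left, each gene's value in the 2 diet comparisons, ordered by MD + Veh against CD + Veh, with filled symbols for genes called. Right, the number of genes per bin of 0.1 in 4 comparisons. Nearly all diet values lie below 0, with medians of -0.36 and -0.30, and values of MD + PE against MD + Veh centre near 0.

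The sum of the 6 hepatocyte markers moved in the same direction with diet, but not every marker did. It was 79094 to 96342 CPM in CD + Veh and 59298 to 75507 CPM in MD + Veh, without overlap. The sum was 73778 to 103760 CPM in CD + PE and 59019.8 to 74706 CPM in MD + PE. With vehicle, Alb, Apoa1, Ttr and Serpina1a were lower on MD without overlap, and Trf overlapped. Cyp2e1 was higher on MD, at 3069 to 4546 CPM in CD + Veh and 4703 to 6047 CPM in MD + Veh. The 4 red blood cell markers, led by Alas2, summed to 129 to 183.9 CPM in CD + Veh and to 425, 591, 353, 190 and 165 CPM in MD + Veh, and to 103 to 385 CPM in CD + PE and 159 to 281 CPM in MD + PE, which overlapped. The 5 intestinal epithelium markers, led by Fabp2, summed to 52.4 to 84.7 CPM in CD + Veh and 116 to 131 CPM in MD + Veh, and to 69.6 to 102 CPM in CD + PE and 112 to 198 CPM in MD + PE, higher on MD without overlap in both comparisons. With vehicle only Fabp2 was higher, at 42.6 to 66.6 CPM on CD and 104 to 121 CPM on MD. Lgals4 and Vil1 overlapped there, and Cdx2 and Reg3b were at 0. The 198 CPM was MD + PE replicate 2, where Lgals4 was at 52.2 CPM and Vil1 at 22.7 CPM. The 7 leukocyte markers, led by Ptprc, summed to 13.5 to 21.5 CPM in CD + Veh and 15.5 to 33.9 CPM in MD + Veh. They summed to 6.42 to 36.5 CPM in CD + PE and 12.7 to 19.8 CPM in MD + PE. Both comparisons overlapped, but within S39 to S45 MD + Veh (33.9, 29.2 and 21.7 CPM) lay above CD + Veh. The 6 exocrine pancreas markers, led by Cela1, lay between 5.48 and 20.4 CPM over all libraries. No marker was at 0 in every library. Their part in the lower level of the coding members was not tested.

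Genes that work with the ribosomal proteins were read beside them, against the 5.63% of all genes that were lower in MD + Veh against CD + Veh and the 2.92% in MD + PE against CD + PE. Fau, which encodes a ubiquitin-like protein fused to a small-subunit protein, fell in MD + Veh against CD + Veh from 79.8 ± 6.58 CPM (SD, n = 4) to 57.5 ± 9.40 CPM (SD, n = 5). Among 18 tested translation factors and other transcripts with an oligopyrimidine tract, only Eef1b2, a nucleotide exchange factor of elongation, fell, with a log2 fold change of -0.44 ± 0.09 (SE), while 16 of 18 were negative and the median was -0.23. Of 27 ribosome biogenesis genes, 3 fell: Nop2 (-0.41), which modifies ribosomal RNA, Polr1c (-0.46), a subunit of RNA polymerases I and III, and Rrn3 (-0.45), an initiation factor of RNA polymerase I. The median of the 27 was -0.19. The 78 mitochondrial ribosomal proteins, which are encoded by other genes and serve the ribosome of the mitochondrion, had a median of 0.00 and 1 member, Mrpl15, that fell. None of 17 mTORC1 and translation control genes was called, and their median was 0.01. For MD + PE against CD + PE the medians of these 4 lists, in the same order, were -0.20, -0.11, -0.06 and -0.05, and the genes of these lists that were called were Polr1a (-0.44), the largest subunit of RNA polymerase I, and Mrpl15 (-0.39).

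The second question was whether PE changed these genes. On CD, 2 coding members rose and 4 fell in CD + PE against CD + Veh, where 1.22% of all genes were higher and 1.7% lower. The median was -0.10 over the coding members and 0.01 over all genes. These 2 groups lay in different ranges of library numbers, and each of the 6 calls was lost when the range was added to the model as a covariate, which left 0 coding members called and 4 at an unadjusted p under 0.05. The 6 genes then had edgeR adjusted p between 0.107 and 0.944. The covariate is estimated from MD + Veh, the only group in both ranges.

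Rpl27, a large-subunit protein, was at 45.9, 47.5, 56.2 and 58.1 CPM in CD + Veh and at 81.9, 72.7, 89.9, 88.3 and 85.7 CPM in CD + PE, with no overlap (log2 fold change 0.69 ± 0.16 SE, edgeR adjusted p = 0.0178). Within MD + Veh it was at 43.7, 43.4 and 47.5 CPM in replicates 1 to 3 and at 64.9 and 84.5 CPM in replicates 4 and 5. Rpl10a, the protein of the mobile L1 stalk, was at 78.2, 74.9, 90.9 and 87.8 CPM in CD + Veh and at 115, 113, 115, 119 and 125 CPM in CD + PE (0.50 ± 0.12 SE, edgeR adjusted p = 0.0270). Both genes thus also differed between MD + Veh libraries of the 2 ranges, and with the covariate their log2 fold changes were -0.05 and -0.04.

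Rpl37a, Rpl3, Rpl36a and Rps24 fell, with log2 fold changes of -0.57 ± 0.13, -0.47 ± 0.07, -0.44 ± 0.09 and -0.39 ± 0.08 (SE, edgeR adjusted p = 0.0156, 0.00116, 0.00649 and 0.0119). Rpl37a, a zinc-binding large-subunit protein, was at 46.5, 43.1, 40.5 and 44.9 CPM in CD + Veh and at 30.6, 22.8, 32.0, 30.8 and 31.2 CPM in CD + PE, and at 32.2, 35.2 and 35.5 CPM in MD + Veh replicates 1 to 3 against 24.4 and 24.5 CPM in replicates 4 and 5. It was lower in the second range within both diets. Rpl3 was at 197, 195, 182, 216 and 202 CPM in CD + PE, below all CD + Veh libraries, and did not differ in level between the MD + Veh libraries of the 2 ranges, which overlapped. With the covariate Rpl3 had nearly the same log2 fold change, -0.45 ± 0.12 (SE), with an adjusted p of 0.107. Rpl36a likewise stayed near its value, at -0.42 ± 0.15 (SE), whereas Rps24 and Rpl37a went to -0.22 ± 0.14 and -0.08 ± 0.17 (SE).

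On MD, 0 coding members were called in MD + PE against MD + Veh by edgeR and 0 by DESeq2, and 15 had an unadjusted p under 0.05. Of all genes, 0.934% were lower and 0.147% higher. The median was -0.05 over the coding members and -0.01 over all genes. With S46 to S57 alone, which leaves MD + Veh replicates 4 and 5, 0 of 83 coding members were called by edgeR, 2 had an unadjusted p under 0.05 and the median was -0.02. For the interaction of PE and diet, 0 coding members and 0 pseudogenes were called by edgeR and by DESeq2, with 5 and 6 at an unadjusted p under 0.05, and 0.00735% of all genes were called by edgeR.

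The pseudogenes differed from the coding members above all by library number. The 37 pseudogenes summed to 444 to 652 CPM of the unscaled library total in S39 to S45 and to 146 to 220 in S46 to S57, and their share of all member counts was 4.35% to 4.86% in the first range and 1.58% to 1.97% in the second. Within MD + Veh the sum was 466, 444 and 460 in replicates 1 to 3 and 162 and 174 in replicates 4 and 5, so that the division ran through one group of mice fed and treated alike. These replicates also differed in the sum of the red blood cell markers (353 to 591 CPM in replicates 1 to 3, 190 and 165 CPM in 4 and 5). The haemoglobin genes Hba-a1, Hbb-bs and Hbb-bt differed, whereas Alas2 overlapped (78.9 to 98.2 CPM, and 95.3 and 92.6 CPM). The muscle markers differed too (139 to 3078 CPM, and 16.5 and 2.63 CPM). The part of these markers in the pseudogene counts was not tested. This division was known when the members were chosen, and it is described without a test.

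Rps6-ps4, a processed copy of Rps6 on GRCm39 chr2:75021417-75022166 (minus strand, within an intron of 2600014E21Rik on the opposite strand), had the largest difference. It held 1690, 1259, 1557 and 1480 counts in CD + Veh and 1106, 1252 and 1088 counts in MD + Veh replicates 1 to 3, and 0 counts in each of the 12 libraries of S46 to S57, at least 347-fold lower against a limit of 3 counts per library. Rps12-ps3, on chr19:59310803-59311198 (plus strand, in an exon of Gm59619 and within an intron of Pdzd8 on the opposite strand), held 574, 390, 452, 587, 382, 314 and 339 counts in S39 to S45 and 0 in all 12 others, at least 112-fold lower. These limits cover counting error only. Rpl10a-ps1, on chr1:65033110-65033763 (minus strand, in an exon of Akr1cl), was singled out after its values were seen: it held 512 to 906 counts in S39 to S45, 152, 84 and 53 counts in MD + Veh replicate 4 and MD + PE replicates 1 and 3, and 0 in the other 9.

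**Figure D3:**
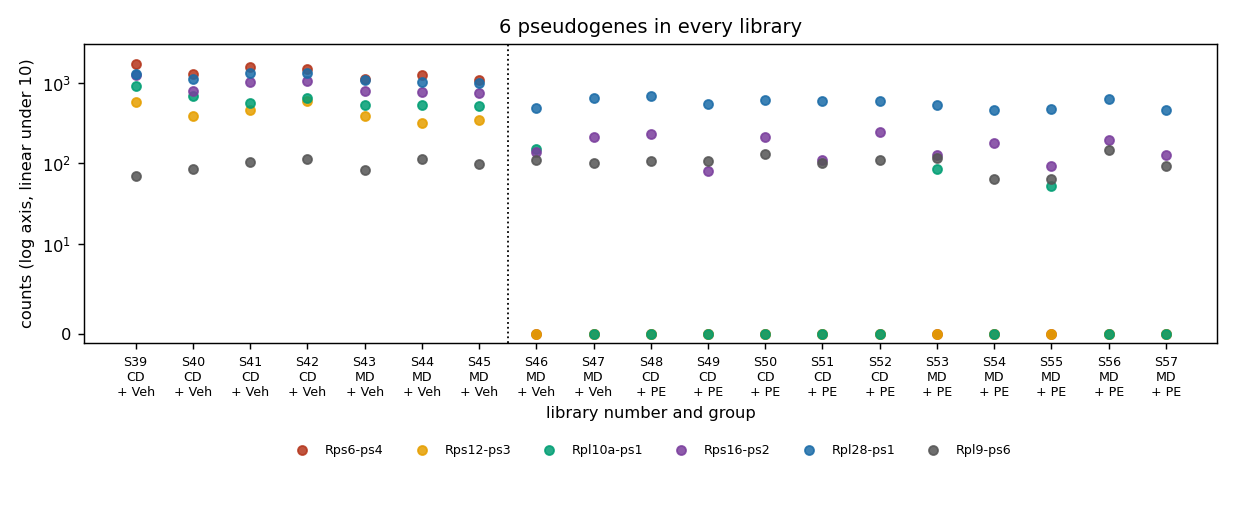
Counts of 6 pseudogenes in each of the 19 libraries, in order of library number, on a log axis that is linear under 10. The dotted line separates S45 from S46. Rps6-ps4 and Rps12-ps3 are at 0 in all 12 libraries on the right, Rps16-ps2 and Rpl28-ps1 are lower there, and Rpl9-ps6 lies between 64 and 146 throughout.

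Of the whole table, 11979 genes had at least 10 counts in every library of S39 to S45, and 4 of them were at 0 in every library of S46 to S57: Rps6-ps4, Rps12-ps3, Gm12338, a processed pseudogene, and H2ac19, a histone gene. In reverse, 0 of 11260 genes were present in all of S46 to S57 and at 0 in all of S39 to S45. With a limit of 5 or 20 counts, or with up to 2 counts allowed in the other range, the same 4 genes were found.

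The other pseudogenes shared the direction to a lesser degree. The mean CPM was higher in S39 to S45 for 34 of the 37, and for 11 the ranges did not overlap, where 0.419% of all 13597 genes tested were higher in S39 to S45 without overlap and 0.346% lower. None of the 37 had non-overlapping ranges in the reverse direction. The count limit that chose the members bears on these numbers, since 12 of the 37, all with a higher mean in S39 to S45, would not have reached it in S46 to S57 alone. Of the 25 that did, 22 had a higher mean in S39 to S45 and 9 did not overlap, among them Rpl28-ps1, Rps23-ps1 and Rps16-ps2. The 5 remaining pseudogenes with the highest totals were Rpl28-ps1, Rps23-ps1, Rps16-ps2, Rpl15-ps3 and Rps27a-ps3. Rpl28-ps1 held 992 to 1297 counts in S39 to S45 and 451 to 684 in S46 to S57, a ratio of mean CPM of 1.59. The ratio was 1.63 for Rps23-ps1, 4.35 for Rps16-ps2, 1.80 for Rpl15-ps3 and 2.78 for Rps27a-ps3. Over the 34 pseudogenes with a count in S46 to S57 the median ratio was 1.85, and over the 25 it was 1.80. Rpl9-ps6, which the annotation lists as protein coding, was at 6.32 CPM on average in S39 to S45 and 8.83 CPM in S46 to S57, a ratio of 0.716.

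The sequences show how near these copies are to their parents. Over bases 23 to 112 of the coding sequence of Rps6 (counted from the start codon), the stretch of Rps6-ps4 is identical, and that of Rps6-ps3, a less abundant copy, differs at 4 bases. Capitals mark bases that differ from Rps6. Rps6 itself lies on chr4, minus strand, Rps6-ps4 at chr2:75022055-75022144 and Rps6-ps3 at chr9:53601472-53601561, both on the minus strand of GRCm39.
Rps6: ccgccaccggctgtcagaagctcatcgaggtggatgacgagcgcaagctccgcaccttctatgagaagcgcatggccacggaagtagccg
Rps6-ps4: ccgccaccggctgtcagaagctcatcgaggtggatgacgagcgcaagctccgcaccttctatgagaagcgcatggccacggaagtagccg
Rps6-ps3: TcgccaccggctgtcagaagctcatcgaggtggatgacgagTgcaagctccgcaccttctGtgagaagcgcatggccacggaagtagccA

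Over the whole coding sequence of 747 bases, Rps6-ps4 had 0 mismatches with Rps6 and Rps6-ps3 had 11. Rps6-ps4 summed to 9432 counts over 19 libraries and was at 0 in 12 of them, whereas Rps6-ps3 had counts in all 19, 33 at most, with a ratio of mean CPM of 1.87.

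The 3 pseudogenes named for Rpl36a are shown over bases 91 to 180 of its coding sequence, because they range from identical to far from it. Rpl36a lies on chromosome X, Rpl36a-ps2 at chr3:145584865-145584954 (plus strand), Rpl36a-ps1 at chr14:99231557-99231646 (minus strand) and Rpl36a-ps3 at chr6:136465895-136465984 (plus strand). Capitals mark bases that differ from Rpl36a.
Rpl36a: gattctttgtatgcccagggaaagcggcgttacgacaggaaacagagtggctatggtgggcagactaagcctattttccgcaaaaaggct
Rpl36a-ps2: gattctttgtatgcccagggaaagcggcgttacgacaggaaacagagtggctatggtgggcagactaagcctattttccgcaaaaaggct
Rpl36a-ps1: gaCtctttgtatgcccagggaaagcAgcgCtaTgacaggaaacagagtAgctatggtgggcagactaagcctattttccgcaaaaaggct
Rpl36a-ps3: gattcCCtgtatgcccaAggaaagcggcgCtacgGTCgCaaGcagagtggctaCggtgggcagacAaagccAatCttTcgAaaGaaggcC

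Rpl36a-ps2, with 0 mismatches over 318 bases, held 139, 52, 35 and 85 counts in 4 libraries of S39 to S45 and 0 in the other 15 libraries. Rpl36a-ps1, with 7 mismatches, had counts in every library and a ratio of mean CPM of 1.57. Rpl36a-ps3 had 40 mismatches with Rpl36a but 1 with the paralog Rpl36al, and a ratio of 3.77.

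Pseudogenes without a mismatch to their parent held 79.7% of the pseudogene counts. Of the 37 pseudogenes, 12 had 0 mismatches with the coding sequence of the parent, 12 had 1 or 2 and 13 had 3 or more, where gaps were not counted and the parent is the gene of the symbol. Of the 12 without a mismatch, 10 also had no gap and held 64.0% of the counts, while Rps23-ps1 had 4 gap bases and Rps12-ps4 had 2. Their median totals over all libraries were 4759, 307 and 244 counts. The ranges of library numbers did not overlap for 8 of the 12 copies without a mismatch (7 of the 10 without a gap), 1 of the 12 with 1 or 2 mismatches and 2 of the 13 with more, of which Rpl36a-ps3 is the one with 1 mismatch to Rpl36al. Of all genes tested, 0.419% were higher in S39 to S45 without overlap. The 8 include Rps6-ps4 and Rps12-ps3, which reached the count limit only through S39 to S45. The classes also differ in total counts, whose part in the overlap was not tested. Of the 8 pseudogenes with the highest totals, 4655 counts or more, 7 had 0 mismatches and Rps27a-ps3 had 1, and no pseudogene with 2 or more mismatches exceeded 1288 counts. Reads that lie within a stretch shared by parent and copy cannot be assigned to either by sequence, so the counts of both are uncertain.

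**Figure D4:**
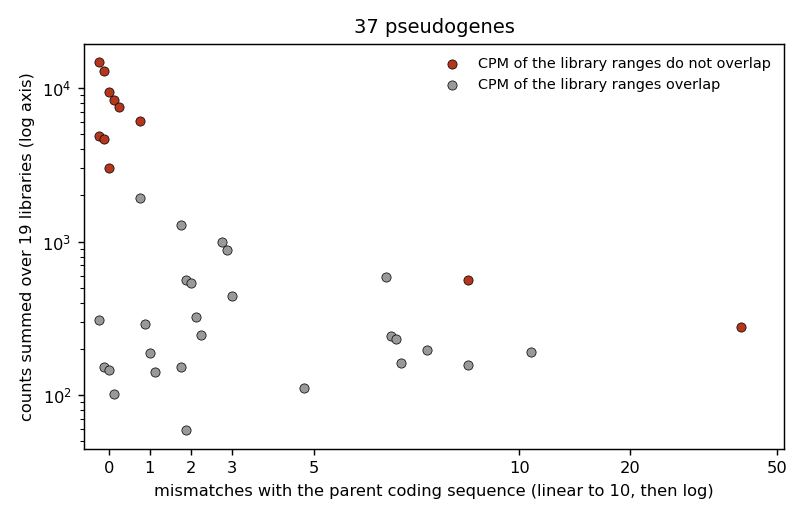
Total counts over 19 libraries (log axis) of the 37 pseudogenes against the number of mismatches with the parent coding sequence (linear to 10, then logarithmic). Points at the same number are shifted sideways, and red points are the 11 pseudogenes whose CPM ranges in S39 to S45 and S46 to S57 do not overlap. The 8 highest points, at 4655 counts or more, all have 0 or 1 mismatches.

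For Rps6, Rpl10a, Rpl31 and Rpl15 the parent was higher where the pseudogenes were lower, and the sum differed less. Rps6, a small-subunit protein phosphorylated downstream of mTORC1, was at 141, 123 and 147 CPM in MD + Veh replicates 1 to 3 and at 213 and 219 CPM in replicates 4 and 5. With the counts of its -ps genes added, the values were 212, 201 and 222 CPM and 214 and 220 CPM. The log2 difference between the ranges within MD + Veh went from 0.66 for Rps6 alone to 0.04 for the sum. It went from 0.54 to 0.00 for Rpl10a, from 0.37 to -0.05 for Rpl31 and from 0.23 to -0.04 for Rpl15. For Rpl27, whose near-identical copy Gm11518 has no -ps symbol, it went from 0.73 to 0.07 with all near-identical pseudogene copies added, and for Rpl27a from 0.40 to -0.07. Other genes moved away from 0 with copies added, such as Rpl21, from -0.04 to -0.16. The median over the 84 coding members went from -0.02 to -0.06.

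Of the 10 parents whose -ps share did not overlap between the ranges, 4 (Rps6, Rpl10a, Rpl31 and Rpl15) had a sum nearer to 0 than the parent within MD + Veh, and for the other 6 (Rpl28, Rpl36a, Rps12, Rps16, Rps23 and Rps27a) the sum was farther from 0. The log2 difference went from 0.15 to -0.24 for Rpl28 and from 0.05 to -0.24 for Rps27a. Rps12 was at 104, 96.3 and 109 CPM in MD + Veh replicates 1 to 3 and at 97.9 and 110 CPM in replicates 4 and 5, so that the parent overlapped between the ranges, and the sum was 135, 121 and 141 CPM against 101.2 and 113 CPM. Rps16 likewise was at 133, 118 and 138 CPM against 122 and 136 CPM, and with its -ps genes at 183, 165 and 188 CPM against 133 and 153 CPM. Rpl12 and Rpl5, chosen after their values were seen, were higher in replicates 4 and 5, with log2 differences of 0.87 and 0.58, and stayed so with copies added (0.86 and 0.41).

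**Figure D5:**
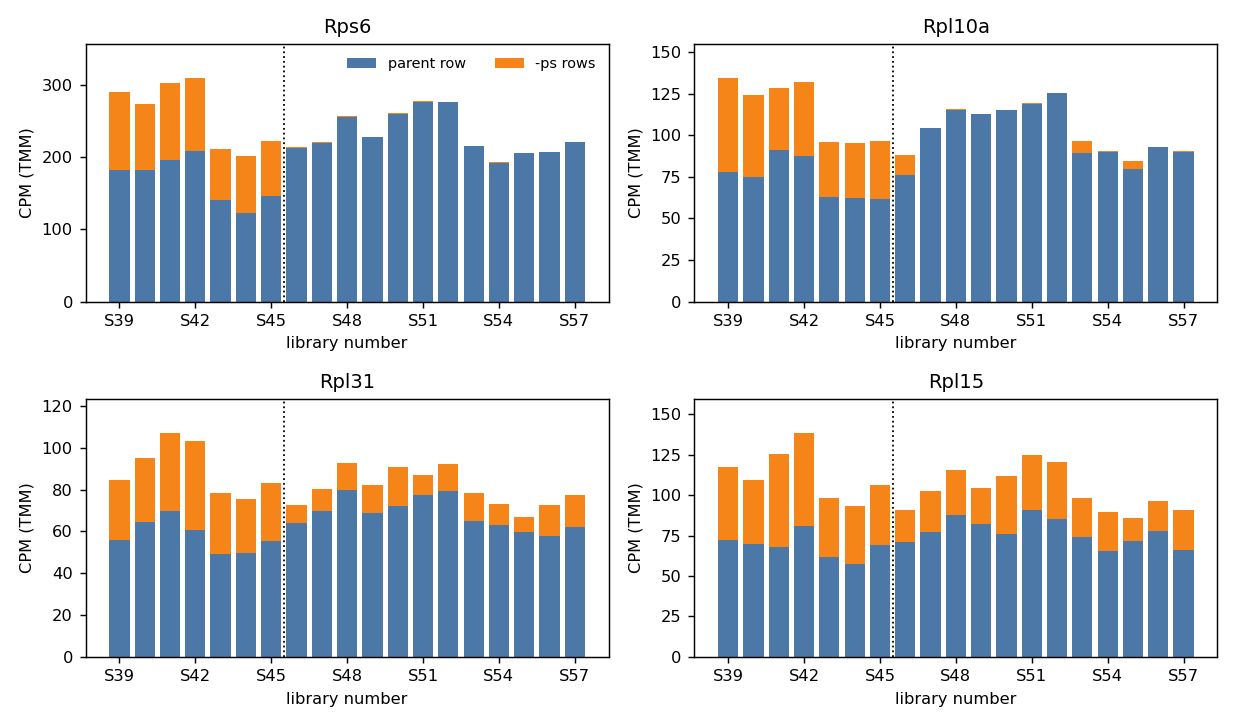
Level of Rps6, Rpl10a, Rpl31 and Rpl15 (blue) and of their -ps genes (orange, stacked) in each library, in CPM with TMM scaling, by library number. The dotted line separates S45 from S46. The orange part of Rps6 falls from 70.5 to 107 CPM on the left to 1.00 CPM or less on the right, and the blue part within MD + Veh is higher right of the line.

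For 10 of the 22 parents, the share of the counts of parent and -ps genes that fell to the -ps genes did not overlap between the ranges. The share was 32.6% to 38.8% in S39 to S45 and 0.143% to 0.456% in S46 to S57 for Rps6, and 29.2% to 41.97% against 0% to 13.4% for Rpl10a. For Rps23, a small-subunit protein of the decoding centre, most counts were on the -ps genes in the first range, 58.9% to 64.9%, and 46.4% to 57.9% in the second. Rpl28 had 54.1% to 58.3% and 42.6% to 47.6%.

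The coding members were also set side by side over the ranges. Over all libraries, 1 of 84 was higher and 1 lower in S39 to S45 without overlap, where 0.419% of all genes were higher and 0.346% lower. Within MD + Veh, 16 of 84 coding members (19.05%) were higher and 8 (9.52%) lower in replicates 4 and 5 than in replicates 1 to 3 without overlap, against 16.6% and 17.5% of all genes. Of the 32 tested pseudogenes, 2 (6.25%) were higher and 16 (50.0%) lower, a count that includes members that reached the count limit through S39 to S45. The median log2 difference was -0.02 over coding members, -0.01 over all genes and -0.59 over pseudogenes.

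Tested by group, 15 of 32 pseudogenes fell in CD + PE against CD + Veh and 0 rose, where 1.7% of all genes were lower. These groups follow the ranges that the pseudogene counts were chosen on, so the count is a description: 4 of the 15 are among the 7 tested pseudogenes that would not have reached the count limit in S46 to S57 alone. With the range as a covariate 0 were called by edgeR and 5 had an unadjusted p under 0.05. In MD + PE against MD + Veh 3 fell over all libraries, where 0.934% of all genes were lower. That count is likewise a description, since MD + Veh replicates 1 to 3 lay in S39 to S45 and MD + PE in S46 to S57. By edgeR 0 of the 26 tested were called within S46 to S57, and 1 of these had an unadjusted p under 0.05. The 3 calls were also lost without MD + Veh replicate 1, which left 0 by edgeR. Leaving out CD + Veh replicate 1, a library of neither group, left 0 as well. In MD + Veh against CD + Veh, 7 of 32 fell over all libraries, where 5.63% of all genes were lower, and 8 of 34 tested within S39 to S45, where 6.24% were lower. Without MD + Veh replicate 1 these counts were 6 of 32, where 4.65% of all genes were lower, and 4 of 36, where 4.49% were lower. Of these 7, Rpl28-ps1, Rps23-ps1 and Rpl15-ps3 had log2 fold changes of -0.54 ± 0.13, -0.62 ± 0.13 and -0.72 ± 0.20 (SE, edgeR adjusted p = 0.00748, 0.00390 and 0.0234). Within S39 to S45 the values were smaller, at -0.32 ± 0.08, -0.40 ± 0.07 and -0.47 ± 0.14 (SE, edgeR adjusted p = 0.0236, 0.00659 and 0.0494), and Rpl28-ps1 was under the limit on the fold. Without MD + Veh replicate 1 none of these 3 was called within S39 to S45, with values of -0.33, -0.36 and -0.46 (edgeR adjusted p = 0.0613, 0.0284 and 0.112). In MD + PE against CD + PE, where 2.92% of all genes were lower, 1 pseudogene, Rpl28-ps1, fell, by -0.41 ± 0.12 (SE, edgeR adjusted p = 0.0464). This call was lost with RLE scaling, library totals, no filter on low counts or the replicate block, and without any 1 of the CD + Veh or MD + PE libraries, MD + Veh replicate 2, or CD + PE replicate 1, 3, 4 or 5. Its parent Rpl28, a large-subunit protein, fell in both diet comparisons too, with groups that overlapped between MD + PE and CD + PE, with log2 fold changes of -0.42 ± 0.09 and -0.46 ± 0.09 (SE, edgeR adjusted p = 0.00548 and 0.00353).

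Each pseudogene was then added to its parent before the test. With all -ps genes added, 1 coding member rose and 8 fell in CD + PE against CD + Veh, and Rpl10a went from 0.50 to -0.14 (log2 fold change, edgeR adjusted p = 0.202). With every near-identical pseudogene copy added, an alternative chosen after the data were seen, 0 rose and 7 fell, and Rpl27 went from 0.69 to -0.02 (edgeR adjusted p = 0.928). In MD + Veh against CD + Veh 38 and 37 coding members fell under these settings, among them all 35 and 32 of the original 35, and in MD + PE against CD + PE 14 and 13 fell.

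Further paralogs among the members were read by library. Rpl3l, the form of Rpl3 found in heart and skeletal muscle, held 231 counts in MD + Veh replicate 1, 14 and 13 counts in replicates 2 and 3, 20 counts in CD + PE replicate 1 and at most 5 in every other library. Its counts were thus highest in the libraries with the highest muscle marker sums. Rps27l, a paralog of Rps27 known as a p53 target, was at 57.2, 64.8, 58.0 and 65.0 CPM in CD + Veh and 51.5, 56.4, 62.1, 68.1 and 70.8 CPM in MD + Veh, which overlapped. Rpl36al was at 130, 119, 139 and 127 CPM in CD + Veh and 114, 107, 114, 100.7 and 113 CPM in MD + Veh, and Rps4l lay between 9.48 and 38.998 CPM over all libraries.

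Promoter sequence was read for the coding members, which were lower on MD as a group. Of 84 coding members, 62 matched the RefSeq promoter table (GRCm38.p6, 250 bases before to 50 after the start). The letters CTTCCG on either strand (reverse CGGAAG), the core of sites bound by ETS-family factors, occurred in 42 of the 62 (67.7%) and in 18.8% of all 27025 genes in the table, and CTCTTT on either strand in 28 (45.2%) and in 25.6%. A match is a description of letters only. Of the 7 genes that fell in both diet comparisons, Rps18 and Rpl28 are printed as examples with a match close to the start, from 30 bases before to 25 after it, with motifs in capitals, for Rps18 at GRCm38.p6 chr17:33955641-33955695 (minus strand) and for Rpl28 at chr7:4792935-4792989 (plus strand).
Rps18: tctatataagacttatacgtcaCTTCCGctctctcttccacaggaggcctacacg
Rpl28: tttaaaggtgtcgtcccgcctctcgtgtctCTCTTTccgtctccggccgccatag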

How the data were processed

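Liver RNA was poly(A)-selected and sequenced by the authors, who trimmed reads with fastp 0.23.4 and quantified them with Salmon 1.10.3 in selective alignment to the GENCODE transcriptome of GRCm39 (release not given in the sources used here), with correction for sequence bias. Gene-level values were then made through tximport. What the authors deposited are estimated counts per gene that were not normalized. Salmon divides reads that match several transcripts by an estimate, which bears on identical copies.

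Groups came from titles and treatment labels. The members and gene lists were chosen with earlier results of these data known. Counts were rounded and tested with edgeR 4.0.16 in R 4.3.3 (TMM, filterByExpr by group, quasi-likelihood fit over 19 libraries, Benjamini-Hochberg over 13597 genes), which tested 84 coding members and 32 pseudogenes. Rpl19-ps1, Rpl7a-ps5, Rps12-ps4, Rps13-ps1, Rps13-ps2 and Rps6kl1 did not pass the filter. DESeq2 1.42.0 was an alternative. Named were the 3 coding members with the largest change per comparison and direction, pseudogenes with 10 or more counts in every library of one range and 0 in the other, the 5 other pseudogenes with the highest totals, paralogs, extremes of level and called genes of the lists, apart from the list noted at the end. Scripts were tested on simulated data.

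Pseudogenes were aligned to parent coding sequences with Biopython 1.88 on GRCm39 with GENCODE vM39. Near-identical copies were pseudogenes with at least 95% identity over at least 80% of a coding sequence (blastn), of which 520 were in the table. Promoter windows came from RefSeq. No 2 libraries of a group were copies of each other. Replicate numbers are shared between groups, but same-numbered libraries did not deviate together (median correlation 0.0293 over 27 pairs, 6 above 0.1), so they share only a number. One list of other ribosome components is not reported here in full.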

Additional observations from a re-analysis of the deposited data

Results flagged for a closer look

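Each group of 4 or 5 libraries was examined for the 52 members named in the report and 3 sums, and in 15 of 211 groups a library stood apart from the rest by Dixon's criterion, where chance gives about 1 in 20. Rpl3l, the muscle paralog of Rpl3, was at 14.6 CPM in MD + Veh replicate 1 (0 to 0.886 in the other 4) and at 1.66 CPM in CD + PE replicate 1 (0 to 0.265). These 2 libraries had the highest summed level of skeletal muscle markers, at 3078 and 422 CPM, and the part of muscle tissue in the value was not tested.

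CD + PE replicate 2 was the low library for 4 coding members. Rpl37a was at 22.8 CPM (30.6 to 32.0 in the other 4), Rpl28 at 53.7 CPM (68.8 to 73.8), Rpl35a at 70.6 CPM (84.2 to 89.4) and Rps27 at 33.5 CPM (49.98 to 52.02). This library also had the highest red blood cell marker sum of its group, at 385 CPM (103 to 127 in the other 4). Its leukocyte marker sum was 36.5 CPM (6.42 to 13.3 in the other 4). The part of these cells in the values was not tested.

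In CD + Veh, Rplp2 was at 108 CPM in replicate 2 (121 to 122 in the other 3), Rps23 at 41.4 CPM in replicate 1 (47.4 to 48.6), Rps4l at 38.998 CPM in replicate 4 (18.8 to 19.8) and Rps6-ps3 at 2.05 CPM in replicate 1 (1.21 to 1.34). In MD + Veh replicate 3, Rpl35a was at 93.8 CPM (71.6 to 76.9 in the other 4) and Rpl36a-ps2 at 5.80 CPM (0 in the other 4). In MD + PE, Rpl10a was at 79.5 CPM in replicate 3 (89.4 to 92.8) and Rps18 at 92.1 CPM in replicate 1 (76.3 to 80.4). Rps13-ps1 was at 0.198 CPM in CD + PE replicate 5 and at 0 in the other 4, which is 2 counts.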

How the results depend on the processing

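The lower level of the coding members on MD kept a negative median under every alternative run, in both diet comparisons. Scaling by the method of DESeq2 (RLE) gave 0 pseudogenes in MD + PE against CD + PE. Library totals gave 2 coding members and 0 pseudogenes there and 0 pseudogenes in MD + PE against MD + Veh. DESeq2 called 7 pseudogenes in MD + PE against MD + Veh and 2 in MD + PE against CD + PE. Without a filter on low counts 4 pseudogenes were called in MD + Veh against CD + Veh and 0 in MD + PE against CD + PE. Without a minimum fold, 11, 61 and 52 coding members were called in CD + PE against CD + Veh, MD + Veh against CD + Veh and MD + PE against CD + PE. Fitting only the groups compared gave 0 pseudogenes in MD + PE against MD + Veh.

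With the replicate number as a block, 1 coding member (Rpl3l) was called in MD + PE against MD + Veh and 0 pseudogenes in MD + PE against CD + PE, while the coding counts were 6, 40 and 15 in CD + PE against CD + Veh, MD + Veh against CD + Veh and MD + PE against CD + PE. Of 19 libraries, 4 correlated best with their own number.

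With the library range as a covariate, 0 coding members and 0 pseudogenes were called in CD + PE against CD + Veh and 0 pseudogenes in MD + PE against MD + Veh, which was also 0 within S46 to S57. Rpl27 and Rpl10a were then at -0.048 and -0.038, within 1 SE (0.156 and 0.138) of 0. Rpl10a was at -0.14 with -ps genes added and -0.13 with near-identical copies added, and Rpl27 at -0.023 with copies added. Within S39 to S45 without MD + Veh replicate 1, an alternative chosen after the data were seen, 4 pseudogenes were called in MD + Veh against CD + Veh. The cause of lost calls was not tested.

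Leaving out 1 library at a time, coding calls ranged from 2 to 7 in CD + PE against CD + Veh (2 without CD + Veh replicate 1 and 3 without replicate 4), from 25 to 43 in MD + Veh against CD + Veh, from 0 to 2 in MD + PE against MD + Veh (2 without MD + Veh replicate 5) and from 10 to 23 in MD + PE against CD + PE (23 without CD + PE replicate 2, 10 without CD + PE replicate 4). Pseudogene calls ranged from 9 to 16 in CD + PE against CD + Veh (9 without CD + Veh replicate 4), from 4 to 8 in MD + Veh against CD + Veh (4 without CD + Veh replicate 3 or 4 or MD + Veh replicate 4 or 5), from 0 to 6 in MD + PE against MD + Veh and from 0 to 3 in MD + PE against CD + PE, where the call was lost without any 1 of the CD + Veh or MD + PE libraries. In MD + PE against MD + Veh pseudogene calls were 0 without MD + Veh replicate 1. They were also 0 without CD + Veh replicate 1, and 6 without MD + Veh replicate 5. Calls for the interaction were 0 throughout. Rpl27 lost its call without CD + Veh replicate 1 or 2, and Rpl10a when replicate 1, 2 or 4 of CD + Veh was omitted, or replicate 3 or 5 of CD + PE. Rpl37a lost its call without CD + Veh replicate 1 or 4 and Rpl36a without CD + Veh replicate 4. Counts of identical copies are estimates at any depth, and for pseudogenes with few counts depth limits what can be seen.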
